A study of Homo sapiens with 6 samples.

Results

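Genes that act when myoblasts fuse and when muscle cells reseal a torn plasma membrane were examined in RD cells, an established embryonal rhabdomyosarcoma line. The set was chosen by name, with earlier results of these data known. It holds 10 genes, each found once by its symbol among the 58735 rows of the count table. They are MYMK, MYMX, CDH15, JAM2, JAM3, NEO1, DYSF, MYOF, CAV3 and ANXA1. Sequencing libraries of poly(A)-tailed RNA came from 3 cultures transduced with lentivirus carrying scrambled shRNA (control) and 3 cultures transduced with lentivirus carrying TAK1 shRNA (TAK1 knockdown). Both groups therefore carried a lentiviral shRNA vector, and 1 TAK1 shRNA sequence was used for this experiment, so an effect of TAK1 loss and one of that shRNA alone cannot be told apart. The sources used here do not say whether the 3 cultures of a group were transduced separately, so the p-values measure the spread between these samples, which may be technical.

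Skeletal muscle fibers form when committed myoblasts recognize each other, adhere and merge their plasma membranes. Cadherins, junctional adhesion molecules and receptors such as neogenin bring the cells together. Myomaker and the microprotein myomixer (also called myomerger or minion) are the muscle-specific proteins that carry the membranes through merger. Mature fibers in turn reseal membrane tears with a calcium-dependent machinery, in which ferlins, annexins and the muscle caveolin take part. Rhabdomyosarcoma cells are known for expressing myogenic factors while rarely forming multinucleated fibers.

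Library totals ran from 28839898 to 34469323 counts on genes. MAP3K7, which encodes TAK1, was at 76.5 to 77.9 CPM in the control cultures and at 29.9 to 33.6 CPM in the knockdown cultures. CPM is the read count of a gene scaled to the size of its library, as adjusted by edgeR's TMM factors. The muscle lineage label was checked with 9 markers. MYOD1, MYOG, PAX7, DES, FGFR4, MYH3, MYH8 and CHRNA1 were expressed, and MYF5 had 0 counts in every library. Their summed level was 2280 to 2296 CPM in control and 2130 to 2239 CPM in knockdown cultures, with 3 markers higher and CHRNA1 lower past both thresholds. Among 14 markers of epithelial cells, endothelial cells and leukocytes, only TEK passed the expression filter, and 5 were at 0 in every library. The summed levels of these 3 lists did not exceed 0.603, 3.65 and 0.106 CPM in any library.

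Among the 10 genes, 2 rose and 4 fell in TAK1 knockdown RD cells, where a call needed a Benjamini-Hochberg adjusted p below 0.05 in the edgeR quasi-likelihood F test and a log2 fold change of 0.25 or more in either direction. MYMK (Myomaker) and CAV3 (the muscle caveolin) were the genes that rose. DYSF (dysferlin), ANXA1 (annexin A1), JAM3 and MYMX (myomixer) were the genes that fell. Across the 15935 genes tested, 11.8% passed in the upward and 11.3% in the downward direction, so 2 upward calls among 10 genes are read against roughly 1 gene in the background. In either direction 6 of the 10 were called, beside 23.1% of all genes tested, and on the adjusted p alone 7 of the 10, beside 33.3%. Since the set was chosen with earlier results of these data known, these shares are not independent evidence about it. At a log2 fold change of 0.5 or more, MYMK and CAV3 passed upward and DYSF downward, beside 4.61% and 4.27% of all genes tested. CAV3 had at most 72 reads in any library, and its call at 0.25 was kept in 1 of 6 fits with a culture left out. The members did not move together, since their median log2 fold change was -0.028, beside 0.018 for all genes tested, with 5 genes higher and 5 lower. The CPM of the groups did not overlap for 9 of the 10 genes, against 43.9% of all genes tested. NEO1 was the exception. All 10 genes passed the expression filter, but JAM2 passed only through the knockdown cultures, where it was higher, so its difference is in part a condition of its being tested.

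**Figure D1:**
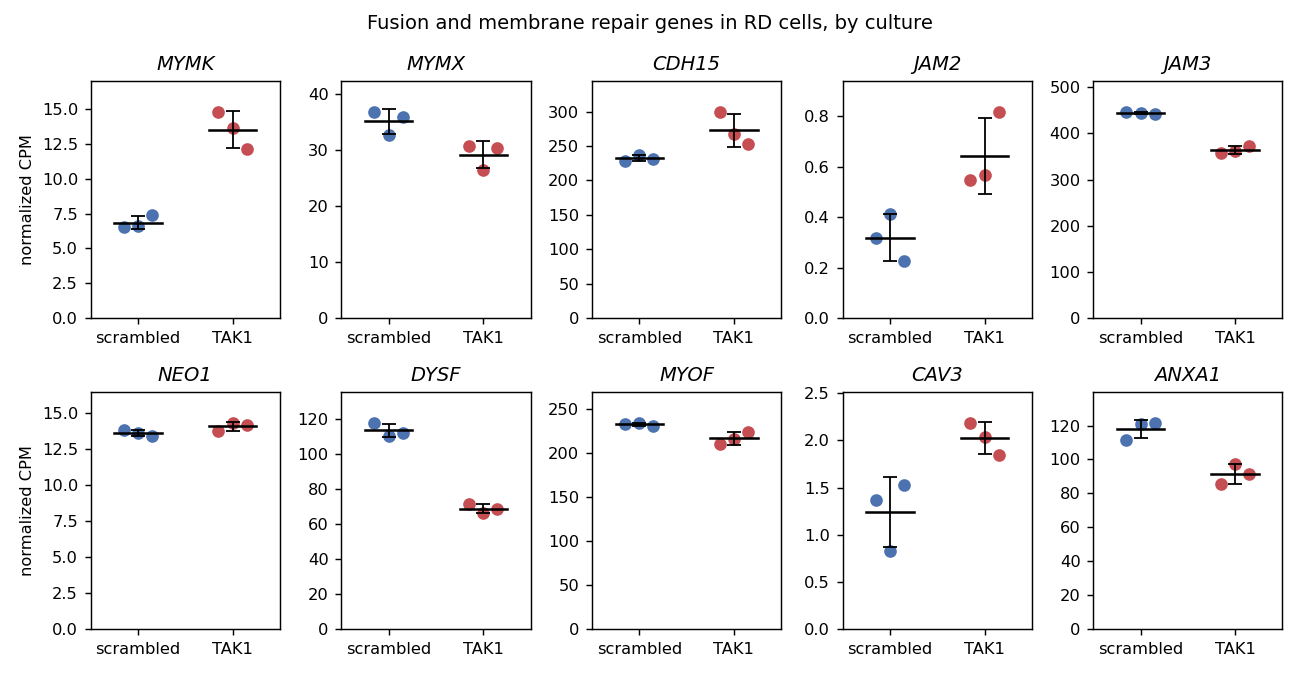
Normalized CPM (vertical axes, each starting at 0) of the 10 genes in the 3 control and 3 TAK1 knockdown cultures. Points are cultures, horizontal lines are means and bars are SD (n = 3). All knockdown points of MYMK, between 12.1 and 14.8 CPM, lie above the control points, all knockdown points of DYSF, between 66.5 and 71.4 CPM, lie below them, and the points of NEO1 overlap.

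Promoter sequences were looked up because 3 of the called members, CAV3, DYSF and ANXA1, have entries in the RefSeq promoter set (GRCh38.p14), which spans 250 bases before to 50 bases after the start of each gene. Entries were found for 5 of the 10 genes, and MYMK, MYMX, CDH15, JAM2 and JAM3 had none. The windows shown are those of CAV3 (chr3:8733552-8733851, plus strand), DYSF (chr2:71453311-71453610, plus strand), its paralog MYOF (chr10:93482285-93482584, minus strand) and ANXA1 (chr9:73151615-73151914, plus strand), written 5′ to 3′ on the transcribed strand. Capitals mark the E-box CANNTG, the motif that myogenic factors such as MYOD1 bind.
CAV3 promoter: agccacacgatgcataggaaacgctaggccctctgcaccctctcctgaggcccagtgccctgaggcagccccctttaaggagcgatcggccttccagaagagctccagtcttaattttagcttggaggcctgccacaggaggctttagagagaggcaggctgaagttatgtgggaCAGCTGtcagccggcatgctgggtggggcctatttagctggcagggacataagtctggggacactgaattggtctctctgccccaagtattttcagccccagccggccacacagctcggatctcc
DYSF promoter: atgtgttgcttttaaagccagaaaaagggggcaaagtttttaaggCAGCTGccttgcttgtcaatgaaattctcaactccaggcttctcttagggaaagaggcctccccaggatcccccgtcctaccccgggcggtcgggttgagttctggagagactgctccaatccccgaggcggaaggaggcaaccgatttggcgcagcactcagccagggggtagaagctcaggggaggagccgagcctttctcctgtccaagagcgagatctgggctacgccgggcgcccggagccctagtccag
MYOF promoter: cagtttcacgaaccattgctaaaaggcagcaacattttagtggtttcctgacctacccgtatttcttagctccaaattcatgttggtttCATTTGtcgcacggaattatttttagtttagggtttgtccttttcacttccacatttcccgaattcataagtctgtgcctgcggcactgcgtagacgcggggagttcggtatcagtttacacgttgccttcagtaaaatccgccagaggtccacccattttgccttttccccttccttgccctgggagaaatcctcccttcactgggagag
ANXA1 promoter: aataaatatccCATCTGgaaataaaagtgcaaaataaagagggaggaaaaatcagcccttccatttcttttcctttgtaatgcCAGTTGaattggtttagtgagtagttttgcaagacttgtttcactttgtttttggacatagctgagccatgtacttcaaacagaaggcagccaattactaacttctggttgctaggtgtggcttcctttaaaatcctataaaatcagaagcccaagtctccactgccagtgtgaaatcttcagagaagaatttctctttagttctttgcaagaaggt

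CAV3, which rose, and DYSF, which fell, each held a single E-box, and in both it had the letters CAGCTG, beginning 75 bases before the start in CAV3 and 205 bases before it in DYSF. MYOF held 1 E-box of other letters 161 bases before its start. ANXA1 held E-boxes 239 and 167 bases before its start, and the NEO1 window held 0. The NEO1 window (chr15:73051652-73051951, plus strand) is placed on a RefSeq start that lies downstream of the GENCODE gene start, 73051710. CANNTG reads the same on both strands. It was present in 68.7% of the 35116 windows of this length, and CAGCTG, which is one of its forms, in 17.9%. Neither the AP-1 motif TGANTCA nor the TEAD motif GGAATG, searched on both strands, occurred in any of the 5 windows, whereas 7.71% and 14.0% of all windows held them. These matches describe letters in a window and are not evidence of binding.

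The membrane merger proteins were examined first. MYMK lies on the minus strand of chromosome 9 (133514586 to 133528612 in GRCh38), and its exons overlap those of no other annotated gene. Its product, Myomaker, is a transmembrane protein needed on both fusing cells. MYMK measured 6.51, 6.64 and 7.36 CPM in control cells and 14.8, 13.6 and 12.1 CPM after TAK1 knockdown. The lowest knockdown culture was 0.72 above the highest control culture on the log2 scale. The change was 1.97-fold, or 0.98 ± 0.11 (SE) on the log2 scale (adjusted p = 1.43e-07 in the edgeR quasi-likelihood F test). Only 1.83% of the genes tested had a higher log2 fold change. Leaving out any 1 culture gave values between 0.91 and 1.04, and the call was kept.

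MYMX lies on chromosome 6 (44216926 to 44218234) and encodes myomixer, a microprotein that completes the opening of the fusion pore. It was at 36.9, 32.7 and 35.9 CPM in control cultures and at 30.7, 26.5 and 30.5 CPM in knockdown cultures. The groups were separate but close, with a gap of 0.092 on the log2 scale between the lowest control and the highest knockdown culture. MYMX fell by 0.27 on the log2 scale, with a standard error of 0.075 (adjusted p = 0.00687 in the edgeR quasi-likelihood F test). This change lies near the fold threshold, and the call was lost without replicate 1 of the control cultures (-0.23), without replicate 2 of the knockdown cultures (-0.20), with upper-quartile normalization (-0.25) and with scaling by library size alone (-0.22). The adjusted p stayed under 0.05 in those fits.

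The balance of the 2 transcripts was examined by a ratio of their read counts, which needs no scaling between libraries and shows unequal change but not the direction of either gene. Reads on MYMX per read on MYMK numbered 5.66, 4.93 and 4.87 in the control cultures and 2.08, 1.95 and 2.52 in the knockdown cultures. The mean ratio was 5.16 ± 0.441 (SD, n = 3) in control and 2.18 ± 0.298 (SD, n = 3) in knockdown cultures, with no overlap. Per kilobase of transcript, which allows levels of different genes to be compared, MYMK reached 8.22 ± 0.555 CPM in control and 16.2 ± 1.60 CPM in knockdown cultures (SD, n = 3). MYMX stood at 42.5 ± 2.60 and 35.3 ± 2.86 CPM per kilobase. MYMX therefore remained the more abundant transcript in both groups.

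**Figure D2:**
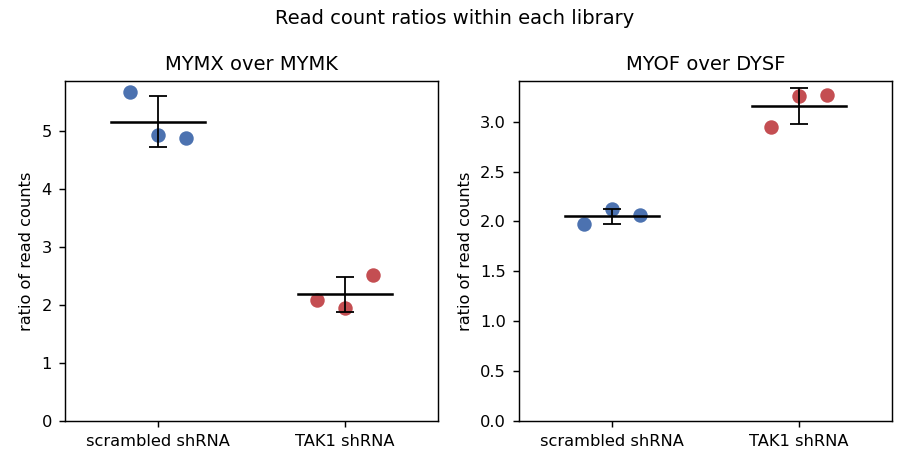
Ratio of read counts within each library (vertical axes, starting at 0) for MYMX over MYMK and for MYOF over DYSF, in 3 control and 3 TAK1 knockdown cultures. Points are cultures, lines are means and bars are SD (n = 3). The MYMX over MYMK ratio lies between 4.87 and 5.66 in control and between 1.95 and 2.52 in knockdown cultures, and the MYOF over DYSF ratio lies between 1.97 and 2.12 in control and between 2.95 and 3.27 in knockdown cultures.

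Among the adhesion proteins, CDH15 (chromosome 16, 89171748 to 89195492) encodes M-cadherin, the cadherin of myoblasts and satellite cells. It was at 229, 237 and 231 CPM in control cultures and at 299, 267 and 252 CPM in knockdown cultures. All knockdown cultures were higher, with replicate 1 well above the other two. On the log2 scale the difference was 0.23 ± 0.052 (SE; adjusted p = 0.00116 in the edgeR quasi-likelihood F test), under the fold threshold of 0.25. Leaving out knockdown replicate 3 gave 0.27, which passed, as it did with scaling by library size alone (0.28), and leaving out knockdown replicate 1 gave 0.16.

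JAM2 and JAM3 encode junctional adhesion molecules B and C, which bind each other across the contact between precursor cells. JAM3 (chromosome 11, 134069071 to 134152001) was at 446, 445 and 442 CPM in the control cultures. In the knockdown cultures it was at 357, 362 and 372 CPM, all below the controls. JAM3 fell by 0.29 on the log2 scale, with a standard error of 0.042 (adjusted p = 6.07e-06 in the edgeR quasi-likelihood F test), and with scaling by library size alone the change was -0.24 and lay under the fold threshold. Of the 3765 bases of its canonical transcript, 50.2% overlap exons of NCAPD3, a condensin gene on the opposite strand. NCAPD3 had a log2 fold change of -0.17 (adjusted p = 0.00723 from the same test). The counting is not stated to use strand, and how far NCAPD3 reads entered the JAM3 count was not tested.

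JAM2 (chromosome 21, 25639258 to 25717562) was close to undetected. It had 9, 13 and 7 reads in the control libraries and 16, 20 and 27 reads in the knockdown libraries, or 0.319 ± 0.093 and 0.644 ± 0.151 CPM (SD, n = 3). Every knockdown library held more reads than every control library. JAM2 passed the expression filter only through the knockdown cultures, so this separation is in part a condition of its being tested. The log2 fold change of 1.01 had a 95% interval from 0.077 to 1.93 and did not pass the test (adjusted p = 0.0906 in the edgeR quasi-likelihood F test). Of its canonical transcript, 58 bases overlap exons of ATP5PF on the opposite strand, a gene at 53.2 ± 0.386 CPM in control and 48.7 ± 1.56 CPM in knockdown cultures (SD, n = 3). How far ATP5PF reads entered the JAM2 count was not tested. At this depth a change in JAM2 was not resolved.

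NEO1 (chromosome 15, 73051710 to 73305205) encodes neogenin, a receptor for netrins and repulsive guidance molecules that acts with CDON and BOC in myotube formation. It was at 13.8, 13.6 and 13.5 CPM in control cultures and at 13.7, 14.4 and 14.2 CPM in knockdown cultures, and the groups overlapped. The log2 fold change was 0.048, with a 95% interval from -0.14 to 0.23 (adjusted p = 0.728 in the edgeR quasi-likelihood F test).

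The repair genes began with the ferlins. DYSF (chromosome 2, 71453561 to 71686763) encodes dysferlin, the calcium sensor that brings vesicles to membrane tears and whose loss causes a limb-girdle muscular dystrophy. It was at 118, 111 and 112 CPM in the control cultures and at 71.4, 66.5 and 68.6 CPM in the knockdown cultures. The highest knockdown culture was 0.63 below the lowest control culture on the log2 scale. DYSF was 1.65-fold lower, or -0.72 ± 0.052 (SE) on the log2 scale (adjusted p = 7.21e-11 in the edgeR quasi-likelihood F test). It had the largest decrease of the 10 genes, and 3.00% of the genes tested had a lower log2 fold change. Across the 16 alternatives it stayed between -0.75 and -0.68 and was called each time.

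MYOF (chromosome 10, 93306429 to 93482334) encodes myoferlin, the ferlin of dividing myoblasts, which also acts in fusion. It was at 233, 235 and 231 CPM in control and at 210, 216 and 224 CPM in knockdown cultures. The knockdown cultures were all slightly lower. The log2 fold change was -0.10 with a 95% interval from -0.20 to -0.012, which did not pass the test (adjusted p = 0.0764 in the edgeR quasi-likelihood F test). Reads on MYOF per read on DYSF numbered 2.05 ± 0.074 in control and 3.16 ± 0.183 in knockdown cultures (SD, n = 3), with no overlap between the groups. The other ferlin genes, FER1L5, FER1L6 and OTOF, did not pass the expression filter and had at most 17 reads in any library.

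CAV3 (chromosome 3, 8733802 to 8841808) encodes caveolin-3, the muscle caveolin, which binds dysferlin at the sarcolemma. Its counts were low, with 39, 26 and 47 reads in control and 64, 72 and 61 reads in knockdown libraries. In normalized units these were 1.37, 0.826 and 1.52 CPM against 2.19, 2.04 and 1.85 CPM, with the second control culture the lowest of all. CAV3 rose by 0.71 on the log2 scale with a standard error of 0.27, a 1.63-fold change (adjusted p = 0.0431 in the edgeR quasi-likelihood F test). The 95% interval ran from 0.16 to 1.26. The call depended on the full set of cultures, since it was kept only without replicate 3 of the control cultures (0.89) and was lost in the other 5 fits with 1 culture left out, at 0.48 to 0.78. DESeq2 gave 0.70 with an adjusted p of 0.0546.

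ANXA1 (chromosome 9, 73151865 to 73170393) encodes annexin A1, a calcium-dependent phospholipid-binding protein that gathers at membrane wounds. It was at 112, 121 and 122 CPM in control and at 85.5, 97.3 and 91.4 CPM in knockdown cultures, without overlap. ANXA1 fell by 0.37 on the log2 scale, with a standard error of 0.055 (adjusted p = 9.25e-06 in the edgeR quasi-likelihood F test), and stayed between -0.42 and -0.32 in every alternative fit.

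**Figure D3:**
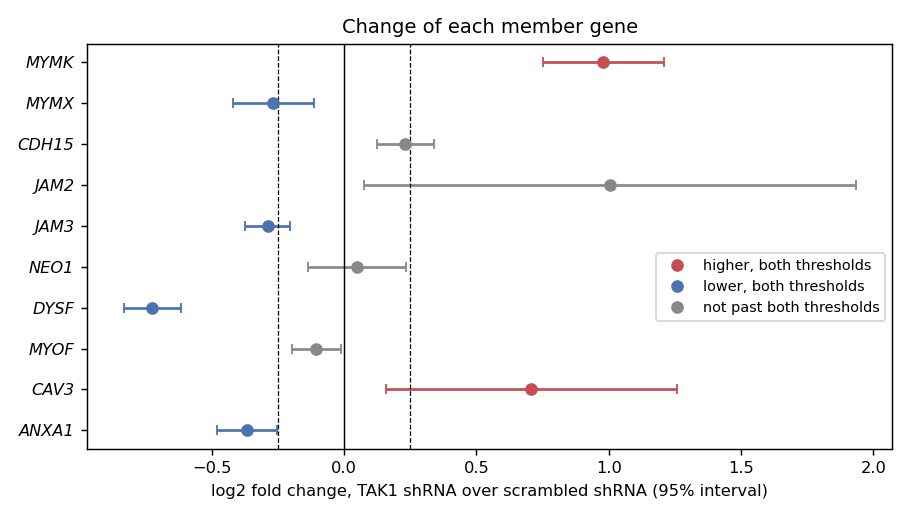
Log2 fold change of each of the 10 genes, TAK1 shRNA over scrambled shRNA (horizontal axis), with its 95% interval from edgeR's quasi-likelihood fit. Dashed lines mark the fold threshold of 0.25 in either direction. MYMK at 0.98 and DYSF at -0.72 are the called genes farthest from 0, and the widest intervals are those of JAM2 and CAV3, the genes with the fewest reads.

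Levels were compared between genes per kilobase of the canonical GENCODE 44 transcript. In control cultures JAM3 stood first at 118 ± 0.526 CPM per kilobase, followed by ANXA1 at 84.2 ± 3.94 and CDH15 at 81.1 ± 1.51, a neighboring pair whose levels differed by less than the spread (SD, n = 3 throughout). MYMX at 42.5 ± 2.60, MYOF at 34.0 ± 0.259, DYSF at 16.8 ± 0.580 and MYMK at 8.22 ± 0.555 CPM per kilobase followed. NEO1 at 1.92 ± 0.025, CAV3 at 0.872 ± 0.258 and JAM2 at 0.073 ± 0.021 CPM per kilobase were the lowest. In the knockdown cultures JAM3, at 96.7 ± 2.03, and CDH15, at 95.2 ± 8.37 CPM per kilobase, could not be separated, and ANXA1 followed at 65.3 ± 4.20. MYMK, at 16.2 ± 1.60 CPM per kilobase, stood above DYSF, at 10.2 ± 0.365, which reverses their order in control cultures. The JAM3 level may hold NCAPD3 reads, as described above.

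The spread between cultures was compared next. In the control cultures the coefficient of variation was under 7% for every gene except JAM2 (29.1%) and CAV3 (29.6%), beside a median of 6.03% over all genes tested. In the knockdown cultures it ran from 2.10% for JAM3 to 9.86% for MYMK, with JAM2 at 23.5%, beside a median of 7.63%. Within the knockdown group, replicate 1 held the highest level of 5 genes (MYMK, MYMX, CDH15, DYSF and CAV3) and the lowest level of the other 5 (JAM2, JAM3, MYOF, NEO1 and ANXA1). Residual MAP3K7 was highest in replicate 2, at 33.6 CPM, and was 30.5 and 29.9 CPM in replicates 1 and 3. Since RNA was taken from whole cultures, fewer cells expressing a gene and less RNA per cell cannot be told apart.

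**Figure D4:**
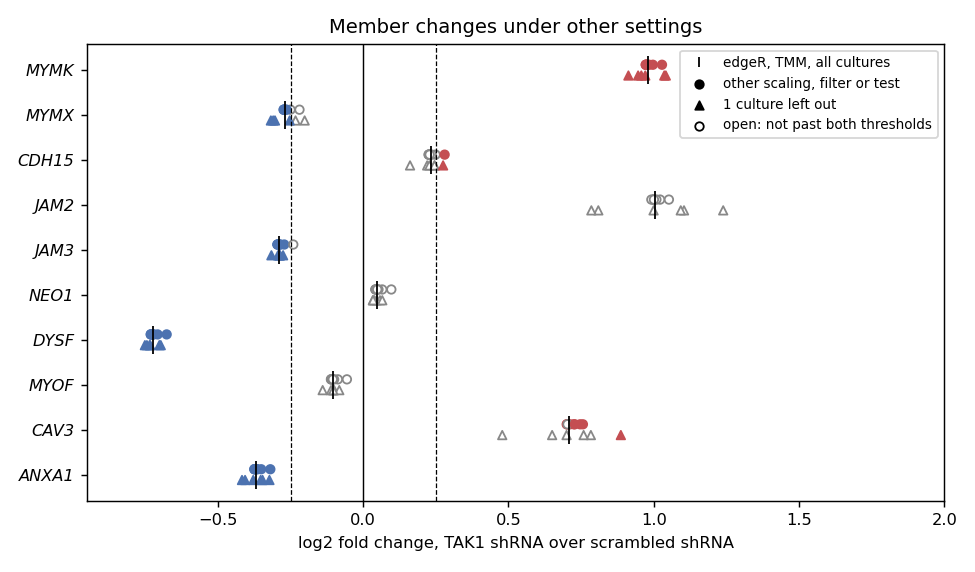
Log2 fold change of each of the 10 genes (horizontal axis) in the reported fit (black bar), with other scalings, filters or tests (circles) and with 1 culture left out (triangles). Filled symbols passed both thresholds and open symbols did not. Changes of the fold threshold are not plotted. MYMK, DYSF and ANXA1 are filled throughout, CAV3 stays filled in 1 of the 6 fits with a culture left out, and no gene changes sign.

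The wider fusion and repair machinery was examined with 6 lists of 108 other genes, of which 94 were tested. Of these, 6 were upregulated and 22 were downregulated, that is 6.38% and 23.4%, against 11.8% and 11.3% of all genes tested. Their median log2 fold change was -0.11, with 30 genes higher and 64 lower, beside 0.018 for all genes tested. The lists, too, were chosen with earlier results of these data known, so their shares are not independent evidence. Over all genes tested, scaling by library size alone moved the upward share of calls from 51.0% to 62.9%. With that scaling the lists held 7 genes higher and 18 lower.

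Among the other surface proteins of fusion, 6 of the 16 genes tested were downregulated and 2 were upregulated. These are 37.5% and 12.5%, beside 11.3% and 11.8% of all genes tested. The list had a median log2 fold change of -0.19. ITGB1, the beta-1 integrin through which myoblasts adhere and fuse, was at 287, 287 and 295 CPM in control and at 109, 115 and 124 CPM in knockdown cultures. This decrease, -1.32 on the log2 scale with a standard error of 0.050 (adjusted p = 1.08e-15 in the edgeR quasi-likelihood F test), was larger than that of any member. ITGA7, a laminin-binding integrin alpha subunit of muscle, fell by 0.42, and CD9, a tetraspanin, fell by 0.67 from a level of only 3.08 ± 0.168 CPM (SD, n = 3). In the other direction, ADGRB1 (BAI1), an adhesion receptor that signals through ELMO and DOCK proteins, was at 6.40, 6.54 and 6.13 CPM in control and at 14.7, 17.8 and 14.8 CPM in knockdown cultures. ADGRB1 rose by 1.31 ± 0.11 (SE) on the log2 scale (adjusted p = 8.29e-10, same test), and PTGFRN, a tetraspanin partner, rose by 0.29.

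CDON and BOC, the receptors that act with neogenin, were counted among the surface proteins above and are named after their values were seen. CDON fell by 0.29 on the log2 scale (adjusted p = 1.05e-05 in the edgeR quasi-likelihood F test) and was called. BOC, at -0.090, was not called (adjusted p = 0.184, same test). The other ligands and co-receptors of neogenin held 1 upregulated and 1 downregulated gene among 7 tested, with a median log2 fold change of -0.041. That is 14.3% in each direction, near the 11.8% and 11.3% of all genes tested. The upregulated gene was NTN3, which encodes netrin-3, a neogenin ligand. It was at 3.52, 3.24 and 2.14 CPM in control and at 6.26, 5.01 and 6.82 CPM in knockdown cultures. The groups did not overlap, and NTN3 rose by 1.02 on the log2 scale with a standard error of 0.18 (adjusted p = 6.57e-05 in the edgeR quasi-likelihood F test). NTN1, which encodes netrin-1, fell by 0.49 with a standard error of 0.13 (adjusted p = 0.00531). NTN4, a further netrin gene tested at low counts and named after its value was seen, was at -0.017 (adjusted p = 0.979, same test). NTN3 and NTN1 thus differed in direction, while NTN4 and NEO1 itself showed no detected change.

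Rac signaling and branched actin drive the protrusions by which one myoblast invades its partner. In that list 5 of 22 genes were downregulated and 2 were upregulated, with a median log2 fold change of -0.12. The shares were 22.7% and 9.09%, beside 11.3% and 11.8% of all genes tested. The genes that fell most were ARF6 (-0.42), WIPF1 (-0.34) and NCKAP1 (-0.32), which encode a small GTPase of membrane traffic, a partner of WASP proteins and a subunit of the WAVE complex. RAC1 and WASF2, named after their values were seen, were the others and fell by 0.27 each. ARHGAP26 (GRAF1), a GTPase-activating protein that promotes fusion, rose by 0.33, and TANC1 rose by 0.30. CDC42, a GTPase of nearly all cells, was listed at only 2.01 ± 0.463 CPM in control cultures (SD, n = 3), and its value was not interpreted. Of the 11 genes tested among junction and cadherin partners, CTNNA1, the alpha-catenin that links cadherins to actin, was the 1 that fell, by 0.31, and 0 rose by the edgeR test. DESeq2 and voom also gave 0 upward, and 2 genes were higher at an unadjusted edgeR p under 0.05. The median of these partners was -0.20. Of them, 9.09% fell and 0% rose, beside 11.3% and 11.8% of all genes tested.

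In the membrane repair list 8 of 31 genes (25.8%) were downregulated and 0 were upregulated by edgeR. Of all genes tested 11.3% and 11.8% were, and the list median log2 fold change was -0.11. DESeq2 and voom also gave 0 upward, and 3 genes were higher at an unadjusted edgeR p under 0.05. ANXA2, the annexin that binds dysferlin and S100A10 at wounds, was at 188, 190 and 201 CPM in control and at 119, 122 and 129 CPM in knockdown cultures. ANXA2 fell by 0.65 with a standard error of 0.049 (adjusted p = 1.98e-10 in the edgeR quasi-likelihood F test). SYT7, a synaptotagmin of lysosome exocytosis, fell by 0.61 and ANXA7 by 0.47. TRIM72 (MG53), which nucleates the repair patch and was named after its value was seen, was at 134 ± 3.33 CPM in control and 158 ± 7.67 CPM in knockdown cultures (SD, n = 3). Its log2 fold change of 0.24 lay under the fold threshold (adjusted p = 0.000431 from the same test). Among 7 caveola genes tested, EHD2, an ATPase at the caveolar neck, rose by 0.49 and PACSIN2, a membrane-curving protein, fell by 0.39, with a median of -0.11 for the list. That is 14.3% in each direction, near the shares of all genes tested.

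**Figure D5:**
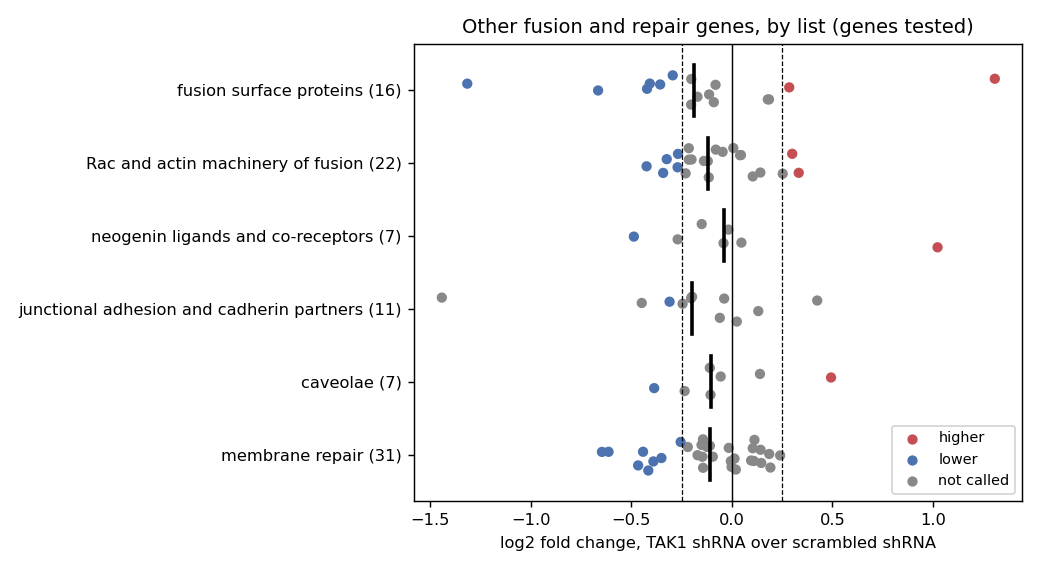
Log2 fold change (horizontal axis) of the 94 tested genes of the 6 lists, with the number tested in parentheses. Points are genes, colored by whether they passed both thresholds, vertical bars are list medians and dashed lines mark a log2 fold change of 0.25 in either direction. The list medians lie between -0.20 and -0.041.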

How the data were processed

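RNA from 3 control and 3 TAK1 knockdown RD cultures was sequenced by the authors, who deposited raw counts of reads per gene. Reads were base called with CASAVA, filtered for adaptors, uncertain bases and low quality, and aligned to GRCh38 with STAR. The counter, the annotation release, strand use and the handling of reads with several matches are not given in the sources used here. Genes with near-identical copies can therefore be undercounted.

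Samples were grouped by their titles. Counts were analysed with edgeR 4.0.16 in R 4.3.3 (default expression filter, trimmed mean of M-values, quasi-likelihood test, group as the only term), and p-values were adjusted by Benjamini-Hochberg over 15935 genes. Each standard error was obtained as the absolute log2 change over the root of F. The common biological coefficient of variation was 5.67%, which exceeds counting error except at low counts. Replicates differed by more than sampling noise (chi-square per degree of freedom from 2.88 to 8.60). DESeq2 1.42.0, limma 3.58.1 (voom), 3 other scalings, 2 other filters, 2 other fold thresholds, a replicate block and leaving out each culture were alternatives. The tests were also run on simulated counts with 200 changed genes. All genes there shared a common dispersion and all changes had the same size. That check therefore does not cover the unequal spread of these replicates or changes of other sizes. Positions, transcript lengths and exon overlaps came from GENCODE 44, and promoter windows from RefSeq (GRCh38.p14). Named from each list were the called genes with the 3 highest and 3 lowest log2 fold changes. The members and lists were chosen with earlier results of these data known.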

Additional observations from a re-analysis of the deposited data

How the results depend on the processing

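No gene of the 10, nor MAP3K7, changed direction under any of the 16 alternatives, of which JAM2 had 15, since it was not tested with a minimum of 10 counts in every sample. MYMK, DYSF and MAP3K7 kept their calls in all of them. A fold threshold of 0.5 left ANXA1 (-0.37), JAM3 (-0.29) and MYMX (-0.27) uncalled and 1 member lower, with 735 genes higher and 680 lower in the whole table. At that threshold the 6 lists held 2 genes higher and 4 lower, of which 1 and 2 were surface proteins, 2 lower were repair genes, and 0 were caveola, junction or Rac genes or neogenin ligands that fell. Without a fold threshold CDH15 (0.23) was called, 2734 genes were lower in the whole table, and the lists held 10 genes higher and 38 lower (surface proteins 4 and 10, repair genes 1 and 13, Rac machinery 10 lower, junction partners 3 lower). With scaling by library size alone, CDH15 (0.28) was called, JAM3 (-0.24) and MYMX (-0.22) were not, which left 2 members lower, and 1 repair gene was higher and 3 Rac genes lower. With upper-quartile scaling MYMX (-0.25) was not called and 1 repair gene was higher. DESeq2 left CAV3 (0.70) uncalled and 1 member higher, and voom called 2 junction partners lower.

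With each culture left out, CAV3 ranged from 0.48 to 0.89, CDH15 from 0.16 to 0.27 and MYMX from -0.32 to -0.20. The members called higher numbered 1 to 2, repair genes higher 0 to 1 (1 without control replicate 1 or knockdown replicate 3), junction partners lower 1 to 2 (2 without knockdown replicate 3) and neogenin ligands lower 1 to 2 (2 without knockdown replicate 1).

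Cultures with the same replicate number correlated in their deviations from the group means at 0.13, 0.071 and 0.048. The best correlation with another number was 0.0039, -0.018 and 0.077. Same-number values were thus higher for replicates 1 and 2 but low for all, so pairing was neither assumed nor excluded. A replicate block gave 1942 genes higher and 1848 lower and left 2 members higher and 4 lower. With it MYOF had an adjusted p of 0.0287 in the edgeR quasi-likelihood F test, and its change of -0.10 stayed under the fold threshold. Where an alternative changed a call, the cause was not tested beyond what its construction sets. Depth limits JAM2 and CAV3, which had at most 27 and 72 reads in any library.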
